A study of Mus musculus with 3 samples.

Results

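Mt1, Mt2 and Mt3, the metallothionein genes detected in this series, were followed across the cell classes of 3 wild-type mouse embryos. The members were taken by gene symbol, which gave 3 of the 31054 features counted, and they were selected on their UMI levels in these same cells, which earlier results had shown to differ between lineages. Their levels are therefore given as a description, with no test. The embryos were WT animals of the C57BL/6 x 129 SvEv strain, collected at embryonic day 8 and labelled as having 0 to 2 somites, and each whole embryo was dissociated after its extraembryonic tissue had been taken off. Each embryo gave 1 single-cell library, with no treatment and no other genotype in the labels. The comparisons below therefore run between cell classes, with the embryo as the replicate (n = 3).

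Metallothioneins are small cysteine-rich proteins that bind zinc and copper and buffer the free metal in a cell. Mt1 and Mt2 are broadly inducible by metals through the zinc-sensing transcription factor MTF1, which binds short promoter motifs called metal response elements, and they are known for high expression in absorptive and secretory epithelia such as visceral endoderm and liver. Mt3 is a family member best known from the brain, and Mt4 from stratified epithelium. Visceral endoderm (VE) is the absorptive epithelium that covers the early embryo and takes up nutrients for it. The left-right organizer (LRO), or node, is the small ciliated pit whose leftward flow sets the body's left-right axis.

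In GRCm38 the 4 genes lie in a row on the forward strand of chromosome 8, within 43131 bp. Mt4 occupies chr8:94137197-94139031, Mt3 occupies chr8:94152607-94154146, Mt2 occupies chr8:94172664-94173568 and Mt1 occupies chr8:94179082-94180327, and the main transcript of each has 3 exons. The files list Mt1 as ENSMUSG00000031765, Mt2 as ENSMUSG00000031762 and Mt3 as ENSMUSG00000031760. The end of Mt2 and the start of Mt1 are 5513 bp apart. Mt4 had 0 UMIs (unique molecular identifiers, each counting 1 captured transcript) in the kept cells, which allows a level of up to 0.0156 to 0.0207 CPM depending on the embryo. CPM is the UMIs of a gene per 1000000 UMIs, taken over all cells of a class in 1 embryo.

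The promoters are shown because Mt1 and Mt2 moved together across lineages while Mt3 did not. All 3 genes had an entry in RefSeq's GRCm38.p6 table. Each line below gives the 250 bases before the RefSeq start on the forward strand, which are intergenic except where the GENCODE gene starts earlier than the RefSeq one, as for the last bases of the Mt1 line. Capitals mark matches to the core of the metal response element, searched as TGCACNC and as TGCGCNC on both strands. These lines cover chr8:94178839-94179088 for Mt1, chr8:94172368-94172617 for Mt2 and chr8:94152357-94152606 for Mt3.
Mt1: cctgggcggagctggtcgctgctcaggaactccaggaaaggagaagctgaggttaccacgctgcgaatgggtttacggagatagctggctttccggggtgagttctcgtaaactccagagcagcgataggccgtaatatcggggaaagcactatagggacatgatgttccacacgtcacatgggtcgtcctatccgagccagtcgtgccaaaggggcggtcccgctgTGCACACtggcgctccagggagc
Mt2: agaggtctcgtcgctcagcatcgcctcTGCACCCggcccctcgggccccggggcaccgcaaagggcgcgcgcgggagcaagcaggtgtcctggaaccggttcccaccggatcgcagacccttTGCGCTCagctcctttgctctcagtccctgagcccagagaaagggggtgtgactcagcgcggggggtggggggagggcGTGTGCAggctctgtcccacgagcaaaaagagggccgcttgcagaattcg
Mt3: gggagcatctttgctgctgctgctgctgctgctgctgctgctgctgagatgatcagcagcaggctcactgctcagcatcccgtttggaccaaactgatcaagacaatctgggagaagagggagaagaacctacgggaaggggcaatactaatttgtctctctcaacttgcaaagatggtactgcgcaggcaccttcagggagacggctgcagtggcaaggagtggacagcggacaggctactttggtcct

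Within these 250 bases Mt1 held 1 match, Mt2 held 3 and Mt3 held 0. No match overlapped another. Of all 32851 promoter windows of the same length, 21.4% held at least 1 match and 1.26% held at least 3. The table's windows run 50 bases past the RefSeq start, and over the whole 300 bases Mt1 held 3 matches, Mt2 held 4 and Mt3 held 1, against 1.97% of all windows with at least 3 and 25.7% with at least 1. The matches past the start were TGCACTC and TGCGCTC for Mt1, GTGCGCA (reverse strand) for Mt2 and TGCACAC for Mt3. These letters are a description of the windows and do not show binding. Each window follows the RefSeq start alone. Annotated transcripts also start at chr8:94179211 and chr8:94179241 for Mt1, at chr8:94172860 for Mt2 and at chr8:94152746 for Mt3. Those starts lie past the windows and the bases between were not searched, so the counts do not rank the 3 promoters.

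The matrices held 23533 barcodes, 6579 to 8621 per embryo, and 21595 cells were kept by the study's stated limits on genes and mitochondrial share together with a mitochondrial minimum of 0.5% that is not among them, with 5795, 7956 and 7844 cells in embryos 1 to 3. Median depth in kept cells was 27635, 14615 and 16332.5 UMIs per cell, so embryo 1 was the deepest. Pairs of embryos shared 18 to 22 barcodes. Cells were placed in 15 classes when at least 4 of 6 marker genes each had a UMI, which assigned 14029 cells and left 7566 (35.0%) unassigned. VE-like cells numbered 314, 1288 and 1024 and LRO-like cells 77, 78 and 108 in embryos 1 to 3. Both names were checked on genes not used to choose the cells. Apoa1, an apolipoprotein of VE, was at 3639 ± 736 CPM (mean ± SD, n = 3) in VE-like and 81.4 ± 48.2 in LRO-like cells, and Dand5, the Nodal antagonist of the LRO, was at 2.02 CPM in VE-like and 167 ± 86.8 in LRO-like cells. Visceral endoderm is present here although extraembryonic tissue was removed, and its share of kept cells was 11.6% ± 5.54.

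Mt1 was by far highest in VE-like cells. Its level there was 1128 CPM in embryo 1, 1384 in embryo 2 and 777 in embryo 3 (1096 ± 305). In all other kept cells together it was 12.3, 43.2 and 79.3 CPM. All 3 VE-like values lay above all 3 others, and the fold was 91.9, 32.0 and 9.79 in embryos 1 to 3. The genes were chosen for this contrast, and 34.6% of all genes of at least 10 CPM were higher in VE-like cells with no overlap between embryos. VE-like cells held 84.2%, 86.7% and 57.1% of all Mt1 UMIs of the kept cells, which totalled 80136.

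Mt2 followed at a lower level. It was at 234, 244 and 128 CPM in VE-like cells (202 ± 64.3) and at 5.71, 10.8 and 27.2 CPM in all other kept cells. The fold was 41.0, 22.6 and 4.70, again with no overlap. Of the 17261 Mt2 UMIs, VE-like cells held 70.3%, 82.2% and 39.0% in embryos 1 to 3. For both genes embryo 3 had the lowest VE-like level and the highest level outside VE.

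Nearly every VE-like cell carried Mt1. At least 1 Mt1 UMI was found in 96.6% ± 2.14 of VE-like cells (n = 3), and at least 1 Mt2 UMI in 89.5%, 92.2% and 76.5% of them. With cells of at least 5000 UMIs thinned to that depth, the shares averaged 91.0% ± 4.39 for Mt1 and 57.3% ± 12.8 for Mt2. The median VE-like cell held 11.7, 14.5 and 7.40 Mt1 UMIs per 10000, and the 10% of cells with most began at 23.4, 25.8 and 16.8. Both genes were found together in 89.5%, 92.1% and 76.0% of VE-like cells, and neither in 4.14%, 0.776% and 4.49%. Across VE-like cells the log levels of Mt1 and Mt2 had a Pearson r of 0.82, 0.64 and 0.65 within the 3 libraries, a description over cells that share depth and library.

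**Figure D1:**
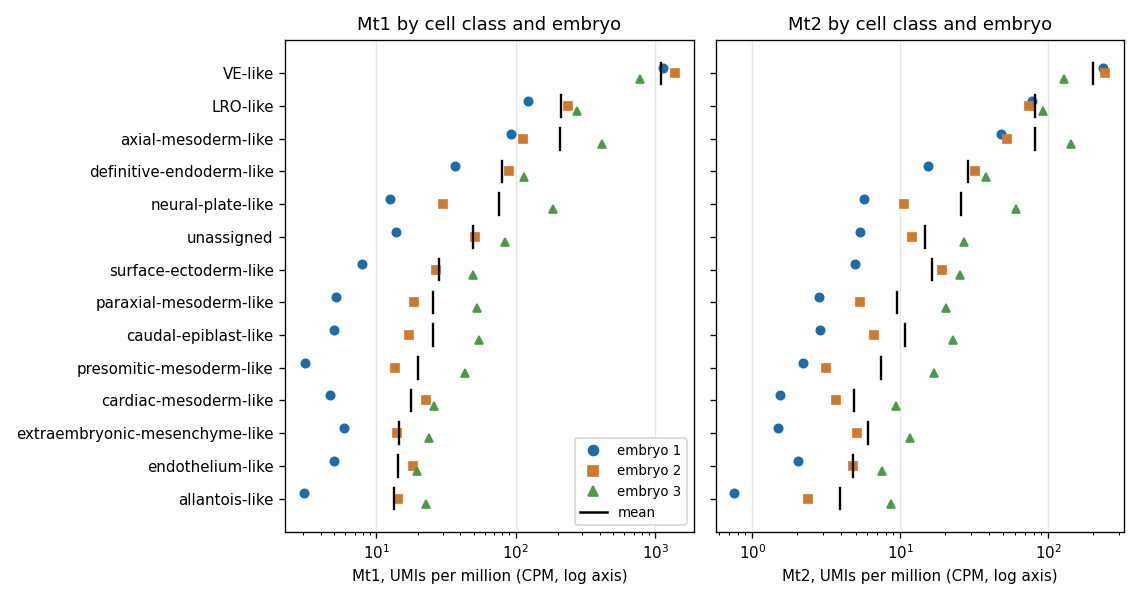
Level in CPM (log axis) of Mt1 (left) and Mt2 (right) in each cell class with at least 10 cells in every embryo, 1 point per embryo and a black line at the mean. VE-like cells stand above all other classes for Mt1. For Mt2 they have the highest mean, but in embryo 3 axial-mesoderm-like cells are higher (143 against 128 CPM). Embryo 3 (triangles) is highest in 13 of the 14 rows for each gene, with VE-like cells as the exception.

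LRO-like cells came second for both genes. Mt1 was at 123, 238 and 272 CPM (211 ± 78.2) and Mt2 at 78.2, 74.2 and 93.2 CPM (81.8 ± 10.0) in embryos 1 to 3. VE-like cells exceeded them 9.18-, 5.80- and 2.85-fold for Mt1 and 2.99-, 3.29- and 1.37-fold for Mt2, without overlap, as did 29.7% of all genes of at least 10 CPM in this pair of classes. The share of LRO-like cells with a UMI was 64.9%, 76.9% and 90.7% for Mt1 and 62.3%, 53.8% and 79.6% for Mt2. Measured against all other kept cells, which include VE, Mt1 in LRO-like cells was 1.70-, 0.88- and 1.70-fold and Mt2 4.51-, 1.48- and 2.45-fold. Mt1 thus lay above in 2 of 3 embryos and Mt2 in all 3.

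Axial-mesoderm-like cells, the notochord lineage next to the LRO, overlapped LRO-like cells in the levels of Mt1 and Mt2. Only 77 cells carried the label (21, 36 and 20). Their Mt1 was at 92.1, 112 and 416 CPM and their Mt2 at 48.0, 53.2 and 143 CPM. LRO-like cells were higher in 2 of 3 embryos for each gene. In embryo 3 the axial-mesoderm-like Mt2, from 39 UMIs, also lay above the 128 CPM of VE-like cells. Definitive-endoderm-like cells, named by markers of the gut lineage, came next with Mt1 at 36.3, 89.6 and 114 CPM and Mt2 at 15.6, 32.1 and 38.4 CPM. LRO-like cells lay above them in every embryo, by 2.39- to 3.38-fold for Mt1 and 2.31- to 5.03-fold for Mt2. For both genes the 2 classes did not overlap, as held for 21.1% of all genes of at least 10 CPM in the same direction. VE-like cells exceeded definitive-endoderm-like cells 6.82- to 31.0-fold for Mt1 and 3.33- to 15.1-fold for Mt2, again without overlap. The same held for 29.2% of all genes of at least 10 CPM.

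The remaining classes were low and hard to rank. Neural-plate-like cells had Mt1 at 12.5, 30.1 and 184 CPM and Mt2 at 5.72, 10.7 and 61.0 CPM. Means of the other 8 classes ran from 13.4 CPM in allantois-like to 28.0 CPM in surface-ectoderm-like cells for Mt1, and from 3.95 to 16.5 CPM for Mt2 in the same pair of classes. From LRO-like cells down, each class overlapped the next in the order for Mt1, and for Mt2 the sole gap was that between axial-mesoderm-like and definitive-endoderm-like cells. Erythroid-like cells were scored apart because embryo 1 held only 1 of them. Their Mt1 was at 113 CPM in embryo 2 and 114 CPM in embryo 3, near definitive-endoderm-like cells, while their Mt2 was at only 8.26 and 13.4 CPM.

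The embryos differed in a like way in most classes. Among the 13 classes and the unassigned cells, embryo 3 was highest in 13 of 14 for Mt1 and in 13 of 14 for Mt2, and embryo 1 was lowest in 13 for Mt1 and in 12 for Mt2. The exception was VE-like cells, in which embryo 2 was highest and embryo 3 lowest, 1.78-fold apart for Mt1 and 1.91-fold for Mt2. The spread of Mt1 was wide in neural-plate-like cells, whose share with an Mt1 UMI was 30.5%, 37.2% and 83.2% and, thinned to 5000 UMIs, 5.78%, 12.2% and 49.8%. Summed immediate early and heat shock genes, listed as a check on handling, ran the other way, at 3531, 2694 and 1949 CPM in these neural-plate-like cells. Hspa8 carries most of such a sum. Outside VE-like and LRO-like cells it was at 2507 ± 730 CPM, against means of 173 for Hsph1, 42.9 for Jun, 19.9 for Fos and 7.54 for Egr1. The order of the sum therefore cannot show how the other listed genes ran. The part of handling in the embryo difference was not tested.

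Mt1 and Mt2 did not keep 1 proportion. VE-like cells held 4.82, 5.68 and 6.08 Mt1 UMIs for each Mt2 UMI (5.52 ± 0.643). LRO-like cells held 1.57, 3.21 and 2.92 (2.57 ± 0.876) and definitive-endoderm-like cells 2.34, 2.79 and 2.97. The VE-like ratio lay above that of both classes in every embryo, with no overlap. Erythroid-like cells had the most unequal pair, at 13.7 in embryo 2 (781 against 57 UMIs) and 8.51 in embryo 3 (315 against 37). Surface-ectoderm-like cells, at 1.57, 1.41 and 1.93, were at the low end. Both genes are counted at their 3′ ends and the ratio compares the same pair of transcripts between classes, so it says which class leans more to Mt1, not which protein is more abundant.

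**Figure D2:**
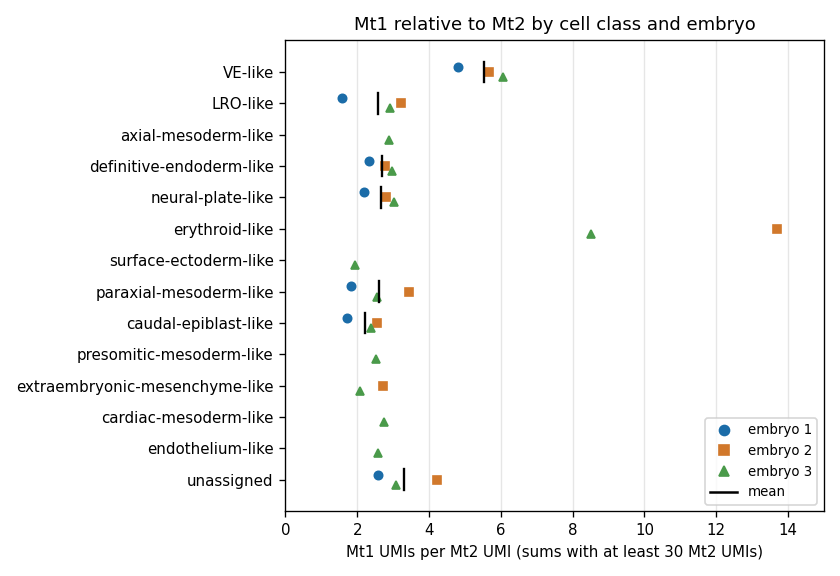
Mt1 UMIs per Mt2 UMI by cell class, 1 point per embryo, for sums with at least 30 Mt2 UMIs, and a black line at the mean where all 3 embryos are shown. VE-like cells lie between 4.82 and 6.08, and erythroid-like cells higher still at 8.51 and 13.7.

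Mt3 had another pattern and a much lower level. It was highest in LRO-like cells, at 8.57, 19.8 and 7.37 CPM (11.9 ± 6.87), which came from 23, 35 and 25 UMIs. In all cells outside the LRO-like class it was at 0.719, 0.776 and 0.999 CPM, so the fold was 11.9, 25.5 and 7.37. None of the 12 other classes of at least 10 cells in every embryo reached the LRO-like range, and 20.7% of all genes of at least 10 CPM were likewise higher in LRO-like cells than in all others with no overlap. Axial-mesoderm-like cells followed at 2.50 ± 1.02 CPM, but on 1 UMI in each embryo. Of all genes of at least 10 CPM, 15.1% were higher in LRO-like than in axial-mesoderm-like cells without overlap. Neural-plate-like cells were at 2.01, 1.89 and 2.86 CPM from 52, 21 and 38 UMIs, above the unassigned cells in every embryo.

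VE-like cells, with the highest mean levels of Mt1 and Mt2, had almost no Mt3. They held 2, 2 and 5 Mt3 UMIs, or 0.17 ± 0.09 CPM, below both LRO-like cells and all other cells in every embryo. Of all genes of at least 10 CPM in a sum, 41.7% and 43.4% were lower in VE-like cells without overlap in these comparisons. Mt3 reached 10 CPM only in the LRO-like sum of embryo 2 (19.8 CPM), so the second share is over genes that do not include it. Mt3 was found in 0.637%, 0.155% and 0.488% of VE-like cells at median depths of 28329.5, 16382.5 and 16094 UMIs. Of the LRO-like cells, at 29798, 18295 and 28131.5 UMIs, 19.5% held it in embryo 1 (exact binomial 95% interval 11.3% to 30.1%, counting error only), 29.5% in embryo 2 (19.7% to 40.9%) and 20.4% in embryo 3 (13.2% to 29.2%). Definitive-endoderm-like cells held 2, 1 and 0 Mt3 UMIs, and the 0 in embryo 3 allows up to 0.984 CPM. Since neural-plate-like cells are many, they held 32.7%, 14.4% and 20.3% of the 492 Mt3 UMIs, against 14.5%, 24.0% and 13.4% in the few LRO-like cells.

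**Figure D3:**
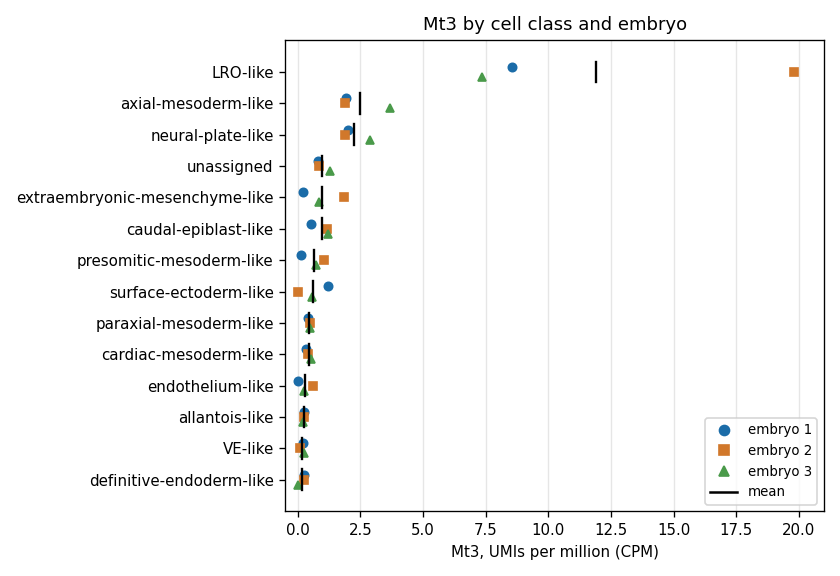
Mt3 level in CPM (linear axis) by cell class, 1 point per embryo and a black line at the mean. The LRO-like points, at 7.37 to 19.8, lie above every other class, and VE-like cells are near the bottom.

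Within the LRO-like class most cells with Mt3 also held Mt1, as did most cells without Mt3. Of LRO-like cells with an Mt3 UMI, 80.0%, 78.3% and 95.5% also had Mt1, against 61.3%, 76.4% and 89.5% of those without. Mt1 and Mt2 were together in 40 of 77, 39 of 78 and 83 of 108 LRO-like cells, with a Pearson r of their log levels of 0.75, 0.80 and 0.82 over cells of 1 library. The 10% of LRO-like cells with the most Mt1 UMIs held 56.7%, 47.0% and 29.1% of the class's Mt1, and the top 10% of VE-like cells held 24.9%, 22.3% and 27.0%.

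Within the LRO-like class, Mt1 and Mt2 were higher in cells with a UMI of Shh, the ligand made by node and notochord. This and the following splits were chosen after the levels were seen. With Shh, Mt1 was at 155, 317 and 340 CPM, and without it at 42.0, 38.2 and 145 CPM. For Mt2 the values were 103, 97.8 and 117 CPM with Shh and 14.4, 14.1 and 49.0 CPM without. Neither gene overlapped between the groups, as held for 14.0% of all genes of at least 10 CPM in this direction. Cells with Shh were shallower in every embryo, with medians of 27754, 15774 and 27989 UMIs against 42384, 25156 and 28274, and shallower LRO-like cells had the higher Mt1 (values below). The part of depth in the Shh split was not tested. Mt3 was at 14.9 ± 6.95 CPM with Shh and at 4.87 ± 6.36 CPM without, where the groups overlapped although it was higher with Shh in 3 of 3 embryos.

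Splits by Nodal, the left-sided signal, and by Dand5 gave overlapping values for each Mt gene. Within embryos Mt2 was higher with Nodal in 3 of 3, at 96.5 ± 11.8 against 65.9 ± 22.1 CPM, and Mt1 in 2 of 3. A split by Mki67, a proliferation marker, went along with depth. LRO-like cells without an Mki67 UMI had Mt1 at 203, 748 and 999 CPM against 107, 156 and 215 CPM with one, and Mt2 at 169, 183 and 347 CPM against 60.2, 56.6 and 73.4 CPM. Their median depth was 12665, 7080.5 and 7877 UMIs against 44577.5, 26381 and 34241. Mt2 and Mt3 did not overlap and were lower with Mki67, as were 19.7% of all genes of at least 10 CPM. The shallower LRO-like cells as such were also higher, with Mt1 at 126, 697 and 534 CPM at or under the median depth and at 122, 122 and 188 CPM above it. The part of depth in the Mki67 split was not tested.

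In definitive-endoderm-like cells the divide fell along Rhox5, a homeobox gene that is strong in extraembryonic lineages. A Rhox5 UMI was found in 86 of 284, 89 of 214 and 51 of 150 of these cells in embryos 1 to 3. Those cells held 247 of the 313, 336 of the 382 and 209 of the 347 Mt1 UMIs of the class. Their origin was not tested. Cells with a Rhox5 UMI had Mt1 at 82.1, 158 and 173 CPM and Mt2 at 30.6, 56.0 and 65.3 CPM. Those without had Mt1 at 11.8, 21.5 and 75.1 CPM and Mt2 at 7.49, 8.41 and 20.7 CPM. Neither gene overlapped, as held for 11.2% of all genes of at least 10 CPM in this direction. The cells with Rhox5 were deeper, at medians of 30349, 20148 and 23902 UMIs against 22881.5, 14804 and 14470.

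**Figure D4:**
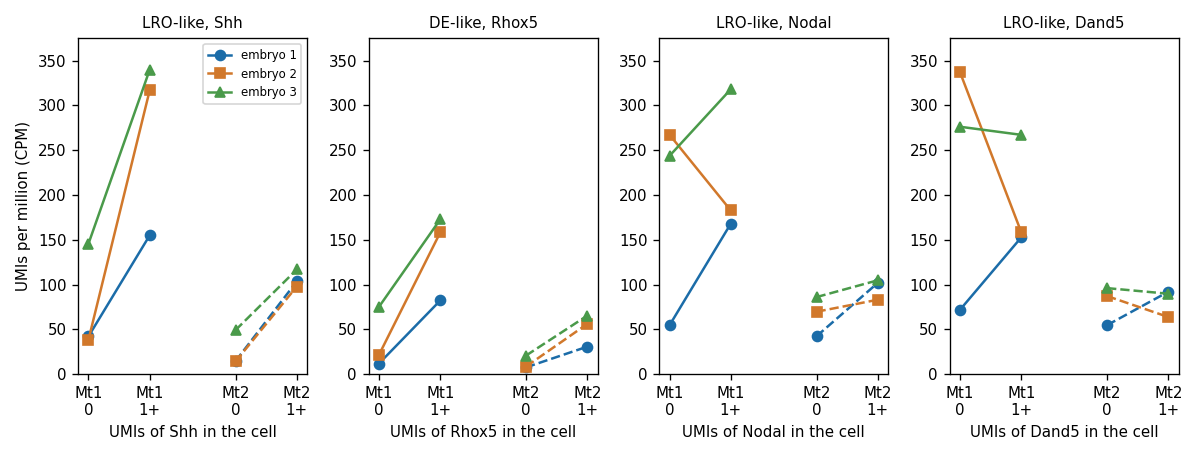
Level in CPM of Mt1 (solid lines) and Mt2 (dashed lines) in LRO-like cells without (0) and with (1+) a UMI of Shh, Nodal or Dand5 and in definitive-endoderm-like (DE-like) cells without and with Rhox5, 1 line per embryo. All lines rise for Shh and Rhox5, and they cross or go both ways for Mt1 with Nodal and Dand5.

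The values around the marker thresholds were as follows. Cells with 3 LRO markers, just outside the class, numbered 18, 16 and 13. They had Mt1 at 123, 202 and 121 CPM and 0 Mt3 UMIs in all 3 embryos. With so few cells, 0 UMIs allow an Mt3 level of up to 4.49, 6.39 and 8.05 CPM. Cells with exactly 4 had Mt1 at 78.4, 161 and 202 CPM and Mt3 at 0, 9.13 and 4.31 CPM. These Mt3 values rest on 0, 3 and 3 UMIs, and the 0 allows up to 7.12 CPM. For VE, cells with 3 markers had Mt1 at 35.7, 50.5 and 89.1 CPM and those with 4 had 110, 99.7 and 148 CPM. Cells with 5 VE markers were at 148, 978 and 634 CPM and those with all 6 at 1110, 1364 and 755 CPM.

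Free VE transcripts could add Mt1 to other droplets, so Mt1 was set beside Apoa1 in each class. VE-like cells held 0.206 to 0.396 Mt1 UMIs per Apoa1 UMI. Each other class of at least 10 cells in every embryo exceeded the VE-like ratio of its own embryo in all 3 embryos. The excess was 7.94- to 11.0-fold in LRO-like, 9.66- to 23.0-fold in definitive-endoderm-like and 20.4- to 110-fold in axial-mesoderm-like cells. It was least in allantois-like cells in embryos 1 and 2 (1.17- and 1.65-fold) and in endothelium-like cells in embryo 3 (4.34-fold). The axial-mesoderm-like ratios rest on 4, 9 and 5 Apoa1 UMIs. Ttr, 1 of the markers that set the VE-like class, gave another scale. Mt1 UMIs per Ttr UMI were 0.210, 0.227 and 0.142 in VE-like and 0.551, 0.536 and 0.758 in definitive-endoderm-like cells. In LRO-like cells they were 1.98, 2.28 and 1.73, so the size of the excess depends on the reference gene. Apoa1 was at 28.3, 93.4 and 122 CPM in LRO-like cells, in the embryo order of their Mt1. In the other classes but VE-like it ran from 3.51 to 29.1 CPM. LRO-like cells with fewer than 2 VE markers had Mt1 at 127, 305 and 345 CPM and Mt2 at 80.3, 85.5 and 122 CPM. Their median depth was 26353, 13227 and 20361 UMIs, below that of the whole class in every embryo. The part of free RNA in the Mt levels was not tested. VE-like cells at or under the median depth had Mt1 at 1433, 1715 and 943 CPM against 985, 1228 and 699 CPM above it.

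The genes with the profile most like that of each member were sought over 39 sums (13 classes in 3 embryos), centred per embryo, among 10672 other genes. The sums share libraries and the VE-like ones stand apart, so r is only a description. For Mt3 it is the LRO-like sums that stand apart. That class was set by markers of ciliated cells such as Foxj1 and Cfap126, which favours other cilium genes in its list. The closest to Mt1 were Mt2 (r = 0.97), Wnk2 (0.92), Hsbp1 (0.91), Mgst3 (0.91) and Atp6ap2 (0.91). For Mt2 they were Mt1, Wnk2 (0.91), Cox6b1 (0.90), Hsbp1 (0.90) and Sel1l3 (0.89). Mgst3 is a microsomal glutathione transferase and Atp6ap2 a proton pump accessory subunit. Those of Mt3 were Rsph1 (0.93), Ccdc39 (0.90), Spa17 (0.89), Efcab10 (0.88) and Dnah9 (0.88), of which Rsph1, Ccdc39 and Dnah9 encode parts of the motile cilium. Mt3 itself had an r of 0.34 with Mt1 and 0.40 with Mt2.

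Most zinc transporter genes differed between VE-like cells and all other kept cells. Zinc enters the cytosol through ZIP importers (Slc39a genes) and leaves it through ZnT exporters (Slc30a genes). Of 24 genes listed, 22 were tested with edgeR's quasi-likelihood test on UMIs summed per embryo, and 16 were higher and 3 lower at an adjusted p under 0.05. These 19 are 86.4% of those tested, where 69.1% of all 15720 genes were called. The p-values come from a fit without the embryo as a block, which treats both sums of an embryo as independent. They measure the spread between the sums of these 3 embryos only. The share called higher was 72.7% against 33.3% of all genes, and 35.8% of all genes were called lower. Whether the list differs from other genes was not tested. The median log2 fold change was 0.81 for the importers and 1.08 for the exporters, against -0.07 for all genes.

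Slc39a5, an importer of epithelia, differed most. It was at 121, 130 and 130 CPM in VE-like cells and at 1.58 ± 0.522 CPM elsewhere, a log2 fold change of 6.57 ± 0.24 (SE; edgeR adjusted p = 7.56e-08). Slc39a4, the zinc uptake transporter of the gut, was at 39.4 ± 4.21 against 2.45 ± 0.222 CPM (4.22 ± 0.11, adjusted p = 1.95e-08 in edgeR). Slc39a8, which also carries manganese, was at 162 ± 20.1 against 26.5 ± 8.53 CPM, and Slc39a3 at 7.28 ± 0.531 against 1.74 ± 0.107 CPM. Among exporters Slc30a1, the zinc efflux pump of the plasma membrane and an MTF1 target, was at 33.1, 36.3 and 31.5 CPM against 8.30, 9.02 and 15.1 CPM (1.86 ± 0.22, edgeR adjusted p = 8.01e-05), and Slc30a4 was at 14.0 ± 1.48 against 3.91 ± 0.743 CPM.

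The importers that were lower in VE-like cells were Slc39a2, Slc39a6 and Slc39a10. Slc39a2 was near the detection limit, at 0.044 ± 0.041 against 0.248 ± 0.0481 CPM, and its call was lost in 4 alternatives. Slc39a6 stood at 7.89 ± 0.154 against 24.2 ± 0.920 CPM and Slc39a10 at 37.4 ± 5.76 against 80.9 ± 8.30 CPM. Mtf1 itself was modestly higher, at 22.9 ± 2.32 against 18.0 ± 0.582 CPM (0.57 ± 0.10, edgeR adjusted p = 8.77e-04).

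Against definitive-endoderm-like cells alone, 11 of 20 tested zinc transporter genes were higher and 2 lower in VE-like cells. That is 65% in all, where 60.8% of the 12090 genes were called (30.4% higher and 30.4% lower). Slc39a5 again led, at 127 ± 5.42 against 8.40 ± 0.841 CPM (4.13 ± 0.12, edgeR adjusted p = 4.63e-09). Slc39a8 differed less here, at 162 ± 20.1 against 120 ± 2.05 CPM. Slc30a1 stood at 33.7 ± 2.45 against 16.4 ± 3.15 CPM.

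**Figure D5:**
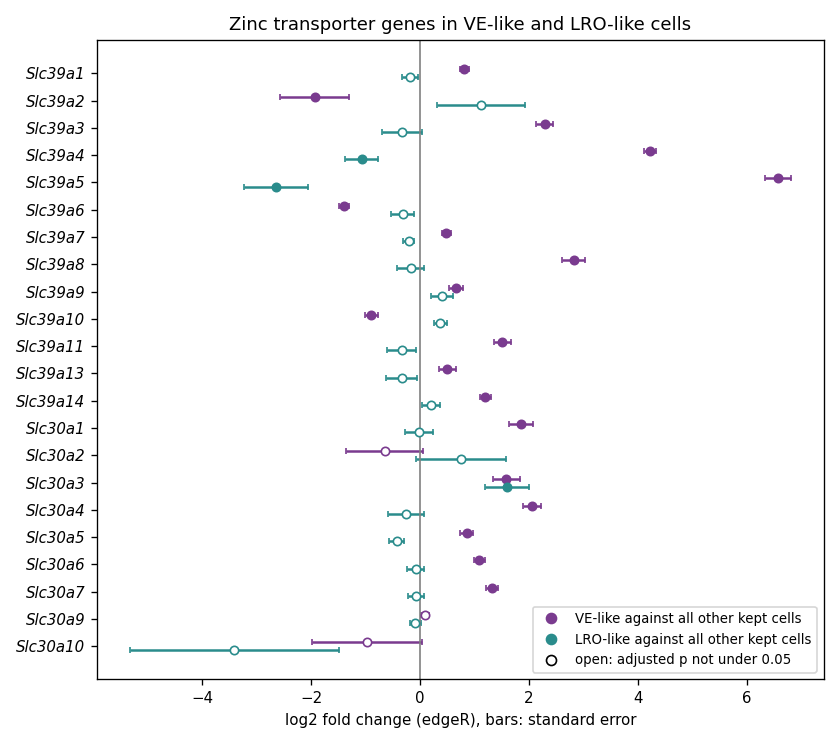
Log2 fold change of each tested zinc transporter gene in VE-like (purple) and LRO-like (teal) cells against all other kept cells, with standard errors. Filled points passed an adjusted p of 0.05, which was the case for 19 genes in VE-like and 3 in LRO-like cells.

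In LRO-like cells few zinc transporter genes passed. Of 22 zinc transporter genes tested, 1 was higher and 2 were lower, 13.6% where 17.7% of all 15823 genes were called (11.2% higher and 6.48% lower). Slc30a3, a vesicle loader of zinc in neurons, was higher at 2.37 ± 0.969 against 0.696 CPM (1.59 ± 0.40, edgeR adjusted p = 0.0223). Slc39a5 and Slc39a4 were lower, by a log2 fold change of -2.64 ± 0.59 and -1.07 ± 0.31, against a rest that holds the VE-like cells. Slc30a3 lost its call without each embryo in turn and Slc39a4 in 6 alternatives. Without embryo 2 none of the 3 passed and without embryo 3 only 1 did, and with the embryo as a block in the fit 6 did, 2 higher and 4 lower, where that fit called 4814 of 15823 genes (2323 higher and 2491 lower). Slc30a1 was at 13.0, 11.3 and 16.8 CPM against 9.61, 13.7 and 17.0 CPM and Mtf1 at 20.0 ± 2.67 against 18.6 ± 0.980 CPM, and neither passed.

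Copper and iron genes were also mostly higher in VE-like cells, in a comparison that called 33.3% of all genes higher and 35.8% lower. Of 10 copper handling genes tested, 8 were higher in VE-like cells and 0 lower (also 0 lower at an unadjusted p under 0.05 in edgeR and 0 in DESeq2), and of 11 iron handling genes 8 were higher and 1 lower. Trf, the plasma iron carrier transferrin, was at 108, 66.0 and 76.5 CPM against 0.970, 1.55 and 1.31 CPM (6.25 ± 0.23, edgeR adjusted p = 9.07e-08). Slc40a1, the iron exporter ferroportin, was at 32.2 ± 6.69 against 2.31 ± 0.221 CPM and Atp7b, the copper pump of hepatocytes, at 28.7 ± 5.27 against 2.29 ± 0.618 CPM. Fth1, the ferritin heavy chain, was at 8438, 9936 and 9348 CPM against 1429, 2158 and 1902 CPM, and Hmox1, heme oxygenase, at 44.8 ± 2.28 against 11.4 ± 0.988 CPM. Tfrc, the transferrin receptor, was the iron gene that was lower, at 20.0 ± 6.73 against 49.2 ± 1.98 CPM.

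In LRO-like cells edgeR called 0 copper and 0 iron genes higher, beside 11.2% of all genes higher and 6.48% lower. At an unadjusted p under 0.05 it was 1 copper and 0 iron genes, and in DESeq2 0 of each. These fits left out the embryo as a block. With the block 4814 of 15823 genes passed, 2323 higher and 2491 lower, and its copper and iron counts are not given here. The copper gene Sco1 was lower (-0.58 ± 0.15) and so were the iron genes Trf (-2.79 ± 0.40) and Tfrc (-0.43 ± 0.10), of which Sco1 and Tfrc lost their calls in 5 and 4 alternatives. The rest again includes VE, where Trf is highest.

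Glutathione and thioredoxin defence genes, which share the thiol chemistry of metallothioneins, were mostly higher in VE-like cells, with 11 higher and 1 lower of 15 beside 33.3% and 35.8% of all genes. Gss, glutathione synthetase, was at 31.0 ± 3.91 against 9.15 ± 2.11 CPM and Nfe2l2, the regulator NRF2, at 93.5 ± 3.08 against 34.1 ± 2.49 CPM. The other leading members were Srxn1 (log2 fold change 1.32), Cat (1.06), Gpx4 (1.05) and Nqo1 (0.90). In LRO-like cells Nqo1 was higher, at 2.47 ± 0.315 against 1.00 ± 0.123 CPM, and Txnrd1 was lower (-0.40 ± 0.12). Both calls were lost in 5 alternatives. The other 13 did not pass in this fit, which had no embryo block.

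Handling stress and other cell types were checked by lists. Of 13 immediate early and heat shock genes, 3 were higher and 3 lower in VE-like cells, where 69.1% of all genes were called. In LRO-like cells, where 17.7% of all genes were called, 0 passed in edgeR (2 higher at an unadjusted p under 0.05, and 1 in DESeq2). Their summed level was 2318 to 2747 CPM in VE-like and 2070 to 3610 CPM in all other kept cells. Hspa8 alone made up most of it, at 2195 ± 187 CPM in VE-like cells. The decidual genes Prl8a2, Prl3c1 and Prl6a1, the trophoblast genes Prl3d1 and Tpbpa and the blood cell gene Ptprc all had 0 UMIs in the kept cells. Summed over each list, VE-like cells held 1.05 to 2.58 CPM of decidual, 26.2 to 32.2 of trophoblast, 491 to 541 of parietal endoderm and 0.152 to 0.204 of macrophage genes. In all other kept cells these sums were 7.33 to 8.06, 8.79 to 15.5, 237 to 250 and 0.225 to 0.309 CPM. Parietal endoderm genes, of which 3 of 6 were higher and 2 lower in VE-like cells (beside 33.3% and 35.8% of all genes), and trophoblast genes thus had the larger sums in VE-like cells, and their part in the Mt levels was not tested. Single genes carried these sums, so they do not measure the content of a cell type. The decidual sum was Wnt4 alone and was highest in surface-ectoderm-like cells (47.6 ± 12.7 CPM). In VE-like cells the trophoblast sum was mostly Plac1 (27.8 ± 2.74 CPM) and the parietal endoderm sum mostly Sparc (367 ± 37.0 CPM). Snai1 of the latter list was low there, at 3.79 ± 0.656 CPM.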

How the data were processed

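The deposited gene by barcode matrices hold UMI counts that the authors made with Cell Ranger 3.1.0 from 10x 3′ libraries, 1 per embryo, against mm10 with EGFP added. They were used as raw counts. EGFP had 31, 0 and 32 UMIs over all barcodes of embryos 1 to 3, and the source of these UMIs was not tested. Cells were kept with 1500 to 8500 genes (7500 in embryo 2) and 0.5% to 10% mitochondrial UMIs. The limits are the study's except the 0.5% minimum, which alone removed 573 barcodes and the other limits 1365. Scrublet (scanpy 1.11.5) marked 0, 191 and 1 barcodes in embryos 1 to 3, counted before these limits. These were too few to be of use, so doublets were not removed. Classes needed a UMI of 4 of 6 markers. A cell with at least 4 LRO markers was LRO-like whatever other markers it held. Any other cell took the class with most markers detected, and a tie left it unassigned.

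UMIs were summed per embryo and class and tested with edgeR 4.0.16 (quasi-likelihood, TMM, R 4.3.3), with Benjamini-Hochberg adjustment over all genes and a threshold of 0.05. The test was checked on simulated counts with 200 genes changed and no embryo effect. That check therefore covers neither sums that share an embryo nor comparisons in which most genes differ. DESeq2 1.42.0 was an alternative. Both sums of a comparison come from the same embryos, so the embryo pairs them, and deviations of same-embryo sums correlated at 0.243 to 0.469.

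The members and the lists were chosen with earlier results of these data known. Named were Mt1, Mt2 and Mt3, up to 12 metal genes and 6 defence genes per comparison with the largest log2 fold change among those called with 1 sign in every embryo, and the 5 genes of most like pattern. Slc39a6, Slc39a10, Mtf1 and Tfrc in VE-like cells, and genes set beside definitive-endoderm-like cells or without a call, were named after their values were seen.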

Additional observations from a re-analysis of the deposited data

Results flagged for a closer look

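Barcodes removed only by the mitochondrial minimum of 0.5% are outside every comparison above and still held metallothionein UMIs. The 573 such barcodes (334, 160 and 79 in embryos 1 to 3) carried 1301 UMIs of Mt1, 271 of Mt2 and 4 of Mt3, each above the 3 counts that a count of 0 allows. Mt1 was at 90.5, 730 and 492 CPM in them, between LRO-like and VE-like cells in embryos 2 and 3 and below LRO-like cells in embryo 1. Mt2 was at 27.0, 113 and 117 CPM. Mt3 came to 3 UMIs in embryo 1, 0 in embryo 2 and 1 in embryo 3.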

How the results depend on the processing

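With the embryo as a block in the fit, which the pairing of sums calls for, 4814 genes passed in LRO-like cells against all others in place of 2798, split into 2323 higher and 2491 lower, and 6 zinc transporter genes in place of 3. The block moved no other count of genes by more than 1.5 times. Leaving out 1 embryo gave 1163 to 2078 genes for LRO-like cells (1163 without embryo 2, 1544 without embryo 3) and 0 to 3 zinc transporter genes. As a mean of each cell's CPM, the log2 ratio of LRO-like to all other cells was 1.00 for Mt1 in place of 0.45 and 4.70 for Mt3 in place of 3.71. Thinned to 5000 UMIs, the share of cells with a UMI fell from 96.6% to 91.0% for Mt1, from 86.1% to 57.3% for Mt2 and from 0.427% to 0% for Mt3 in VE-like cells, and from 77.5% to 50.4%, 65.3% to 34.0% and 23.1% to 9.97% in LRO-like cells. The thinned shares leave out cells under 5000 UMIs. These were 4, 8 and 8 VE-like and 0, 9 and 2 LRO-like cells in embryos 1 to 3. Thinning only takes UMIs out of a cell, so within the same cells the share cannot rise. Why the other values moved was not tested. Of 62 alternative log2 ratios, 60 stayed within 1 SD and 0 changed sign, and of 66 alternative counts of genes 60 stayed within 1.5 times. A mean without 1 of 3 embryos always lies within 1 SD of the mean of all 3. The ratios without an embryo therefore could not fail this rule. The ratio of Mt3 in VE-like cells without the highest 6% of Scrublet scores had a sum at 0 and was not computed. Cells with a class only in the rest, and LRO-like cells with under 2 VE markers, were settings added after the data were seen, and with the first the log2 ratio of Mt1 in LRO-like cells was 0.04. Mt3 rests on 83 UMIs in LRO-like cells, 3 embryos limit every spread, and 35.0% of kept cells had no class.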

Other observations

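Slc30a1, a zinc exporter, had the embryo order of Mt1 in 2 sums, a comparison chosen after its values were seen. Only few orders of 3 embryos exist, and how many of all genes share this one was not counted. Outside VE-like cells it was at 8.30, 9.02 and 15.1 CPM in embryos 1 to 3, where Mt1 was at 12.3, 43.2 and 79.3 CPM. Within VE-like cells it was at 33.1, 36.3 and 31.5 CPM, where Mt1 was at 1128, 1384 and 777 CPM. In LRO-like cells the orders differed, with Slc30a1 at 13.0, 11.3 and 16.8 CPM and Mt1 at 123, 238 and 272 CPM. In the first 2 sums embryo 3 was highest outside VE-like cells and lowest within them for both genes. With 1 library per embryo, the embryo and its library cannot be told apart.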
